A study of Mus musculus with 20 samples.

Results

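CD8+ T cells, the lymphocytes that kill infected and transformed cells, were given interleukin-2 (IL-2) for 4 hr or for 90 min, and the RNA of these cells was compared. The comparison takes 2 of the 20 libraries sequenced, chosen by their labels for cell type, treatment and time. The cells came from mouse spleen and lymph node and were obtained with a CD8+ T cell isolation kit (the protocol gives C57BL/6J mice as their source, and the strain field of the labels C57BL/6N), and they received 200 nM IL-2. The other CD8+ libraries, 1 per group, were made from cells without cytokine (labelled 0 hr) and from cells given 200 nM IL-2-REH for 90 min or 4 hr. IL-2-REH is a variant of IL-2 with weakened contact to the common γ chain of the receptor, and it acts as a partial agonist. The remaining 15 libraries are of regulatory T cells (Tregs), which were sorted as GFP+ cells of B6-Foxp3EGFP mice and treated in the same 5 ways, with 3 libraries per group. Each CD8+ group is 1 library, so that no difference between 90 min and 4 hr below has a replicate check and no p-value is given. No CD8+ cells were kept for 90 min or 4 hr without cytokine, so the effect of the cytokine and that of the time after isolation cannot be told apart.

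IL-2 binds a receptor of the IL-2Rβ and common γ chains, which activates the kinases JAK1 and JAK3 and the transcription factor STAT5. Among its known targets in T cells are feedback inhibitors such as Cish and Socs1, the survival gene Bcl2, and genes of growth and of cytotoxic function. Handling and stimulation of lymphocytes are also known to switch on immediate early genes, among them the AP-1, EGR and NR4A transcription factors, whose transcripts are short-lived.

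The library at 90 min held 45189835 reads on genes and that at 4 hr 40936746 (range over the 5 CD8+ libraries 38201667 to 45189835). Levels are given as RPKM, a read count on the exons of a transcript that is scaled for exon length and library size. Differences are given as the log2 ratio of RPKM + 1 at 4 hr over 90 min, in which the added 1 shrinks the ratios of genes with low levels. The cells carried the RNA of CD8+ T cells, with Cd8a at 165.2 RPKM at 90 min and 203 at 4 hr and Cd8b1 at 213 and 290, whereas Cd4 stood at 0.507 and 0.463 and Foxp3 at 0.999 and 0.813. The 5 CD4+ T cell and Treg markers summed to 12.4 RPKM at 90 min and 9.58 at 4 hr, against 5.40 in unstimulated cells. Their highest member was Ikzf4, with 0.577 RPKM in unstimulated cells, 9.29 and 6.82 with IL-2 and 2.69 and 2.63 with IL-2-REH. Markers of other cells summed to low levels. The 7 B cell markers summed to 4.12 RPKM at 90 min and 5.81 at 4 hr, and the 5 NK cell markers to 18.6 and 24.3. Of the NK cell markers, Eomes was the highest on average over the CD8+ libraries (8.48 and 10.6 RPKM). Its RNA in NK cells and in CD8+ T cells was not separated. The 9 macrophage, monocyte and neutrophil markers with values summed to 22.5 and 14.1. The 7 dendritic cell markers summed to 3.18 and 2.34, and the 7 erythroid markers to 6.81 and 4.47. Of the macrophage markers, C1qa, a complement component, was lower at 4 hr with IL-2 (1.52 and 0.0819 RPKM, log2 ratio -1.22) and with IL-2-REH (1.48 and 0.128 RPKM, -1.14). In bulk RNA, fewer cells of a type cannot be told apart from less RNA per cell, and the part of other cells in the differences below was not tested.

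Of 10021 genes whose RPKM averaged 1 or more in the CD8+ libraries, 63 (0.629%) had a log2 ratio above 1, that is, were higher at 4 hr, and 137 (1.37%) had a log2 ratio below -1. Most genes were close to their 90 min level, with 86.6% within 0.5 in either direction and a median of -0.06. Only 3 genes were above 2 (Ly6a, Iigp1 and Gbp2) and 5 below -2 (Ramp3, Scarna9, Spsb1, Nr4a3 and Kdm2b). The genes higher at 4 hr were led by interferon-induced genes and held the IL-2 targets Cdk6, Ecm1 and Myc. The genes lower at 4 hr held NR4A, EGR and AP-1 factors, G protein regulators, inhibitors of NF-kB and antagonists of Myc. For scale, the same genes were compared between replicate libraries of the Treg groups, which had the same treatment. The 15 pairs of replicates had 50 to 1621 genes (median 415) past 1 in either direction, and 12 of them had more than the 200 genes of the CD8+ comparison. The CD8+ count thus lay within the range between replicate libraries of the other cell type. The unstimulated Treg replicate 1 stood apart from its replicates, with 1621 and 1155 genes past 1 against them. Of the 67 named genes past 1, chosen in part for their large ratios, 28 had a larger ratio than in every one of the 15 pairs. Without the pairs of that replicate, 49 had a larger ratio than in each of the 13 left.

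**Figure D1:**
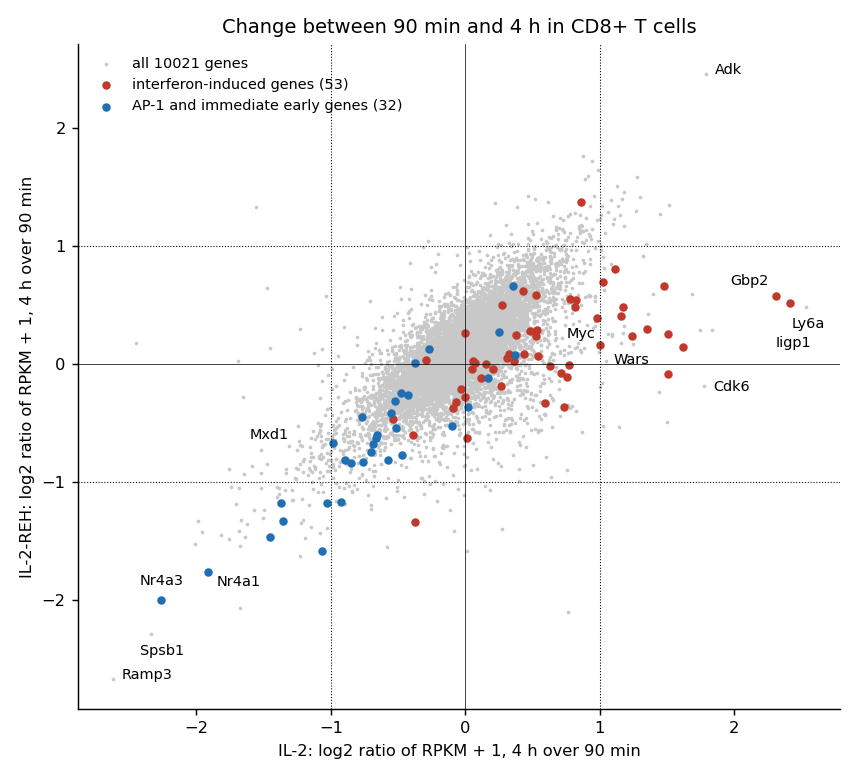
Each point is 1 of 10021 genes, placed by its log2 ratio of RPKM + 1 (4 hr over 90 min) with IL-2 on the x axis and with IL-2-REH on the y axis, with interferon-induced genes in red, AP-1 and immediate early genes in blue and dotted lines at 1 and -1. Interferon-induced genes spread to the right along the x axis up to 2.42, whereas immediate early genes lie along the diagonal down to -2.26 with IL-2, against -1.99 with IL-2-REH.

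Interferon-induced genes are switched on by interferons through transcription factors of the STAT and IRF families and include the guanylate-binding proteins (Gbp genes) and the immunity-related GTPases, which act against intracellular pathogens. Of 59 genes on this list, 53 passed the filter, 13 were above 1 and 0 below -1 (0.629% and 1.37% of all genes were). Above 0 were 44 of the 53 (83.0%, against 42.8% of all genes). The median log2 ratio of the 53 genes was 0.53 with IL-2, against 0.08 with IL-2-REH. With IL-2-REH, 1 gene, Ifit2, was above 1 and 1 gene was below -1 (1.05% and 0.838% of all genes were). Above 0 with IL-2-REH were 34 (64.2%, against 57.9% of all genes). Gbp2 stood at 30.9 RPKM in unstimulated cells, 32.7 at 90 min and 166.1 at 4 hr with IL-2, and at 25.8 and 38.9 with IL-2-REH. The 4 hr library with IL-2 was the one high library, and the other 4 lay between 25.8 and 38.9. The log2 ratio of Gbp2 was 2.31 (5.08-fold in RPKM, 95% counting interval 4.93 to 5.23, from 5580 and 27616 reads). These intervals (exact Clopper-Pearson) cover counting error only. Iigp1, an immunity-related GTPase, stood at 3.87 RPKM in unstimulated cells, 5.38 and 33.1 with IL-2 at 90 min and 4 hr, and 3.28 and 5.10 with IL-2-REH. Its log2 ratio was 2.42 with IL-2. Ly6a, which encodes the surface protein Sca-1 and is not on the list, had the highest ratio of all genes, 2.53, with 15.8 RPKM in unstimulated cells, 5.14 and 34.5 with IL-2 and 3.85 and 5.79 with IL-2-REH. For Ly6a the 90 min level was below that of unstimulated cells with either cytokine.

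The other members above 1 also had the highest level of the 5 in the 4 hr IL-2 library, for all but Zbp1. The order of the other libraries differed between members. Gm12250 was above unstimulated cells at 90 min with IL-2 (18.3 against 6.55 RPKM), and Gbp6 was below (10.6 against 15.4). Among the Gbp genes, Gbp6 (1.62), Gbp10 (1.51), Gbp7 (1.35), Gbp4 (1.11) and Gbp5 (1.003) were above 1. Igtp stood at 47.7 RPKM in unstimulated cells, at 99.6 and 226 with IL-2 and at 38.6 and 54.2 with IL-2-REH (log2 ratio 1.17 with IL-2). Other members of the GTPase family, Gm12250 (1.48) and Irgm1 (1.16), were higher too, and Irgm2 reached 0.78. Zbp1, a sensor of nucleic acids, had 11.6 and 28.8 RPKM (1.24) against 29.7 in unstimulated cells. Samhd1, which degrades deoxynucleotides, had 113 and 231 RPKM (1.02). These 13 genes lie on 6 chromosomes, with Gbp2, Gbp5 and Gbp7 in one cluster on chromosome 3, Gbp4, Gbp6 and Gbp10 in another on chromosome 5 and Gm12250, Igtp and Irgm1 on chromosome 11, so that clustered members of related sequence are not independent of each other, and reads of near-identical copies may have been split between them. Gvin1 and Gm4070, very large interferon-inducible GTPases by name, carried the same 19818 and 49151 reads at 90 min and 4 hr and are 1 locus, with a log2 ratio of 1.32.

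Some members did not follow, here chosen after their values were seen. Isg15, a classical target of type I interferon, stood at 2.53 RPKM at 90 min and 2.56 at 4 hr (0.01), Ifit1 had a log2 ratio of 0.07 and Irf7 one of -0.004, and Irf8 was the lowest member (-0.54). In Tregs given IL-2, the 3 same-numbered pairs of 4 hr and 90 min libraries went different ways for this list, with medians of -0.45, 0.35 and -0.37 against -0.19, 0.18 and 0.02 for all genes. Between replicate libraries of a Treg group, the median of the list departed from that of all genes by 0.01 to 0.85 (median 0.11), and 3 of 15 pairs departed by more than the 0.58 of the CD8+ comparison, 2 of them with the unstimulated Treg replicate 1. For Gbp2, Iigp1 and Ly6a, 0 of 15 replicate pairs had a ratio as large as that of the CD8+ comparison, and for Gbp6 and Gbp10, 2 of 15 pairs did. The stretches before the start sites of 5 of these genes are shown because they carry the letters that transcription factors of the interferon response are known to bind. Capitals mark the gamma-activated site TTCNNNGAA and the interferon-stimulated response element (GAAA repeated after any 2 bases), on either strand, and each stretch runs 5′ to 3′ on the strand of the gene up to the base before the start (RefSeq, GRCm38.p6).
Gbp2: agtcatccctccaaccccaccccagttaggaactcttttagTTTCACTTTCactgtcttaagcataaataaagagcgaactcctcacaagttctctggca
Gbp7: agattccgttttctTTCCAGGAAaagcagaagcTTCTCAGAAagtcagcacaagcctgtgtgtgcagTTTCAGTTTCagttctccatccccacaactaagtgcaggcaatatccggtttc
Gm12250: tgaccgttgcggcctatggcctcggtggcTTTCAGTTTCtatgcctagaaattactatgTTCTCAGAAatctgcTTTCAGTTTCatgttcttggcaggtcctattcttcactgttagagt
Igtp: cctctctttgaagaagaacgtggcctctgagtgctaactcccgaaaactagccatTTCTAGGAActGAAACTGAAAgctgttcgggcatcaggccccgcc
Irgm1: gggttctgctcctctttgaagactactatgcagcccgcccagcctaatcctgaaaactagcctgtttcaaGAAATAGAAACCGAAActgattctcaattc
They lie at chr3:142620563-142620662 (Gbp2, plus strand), chr3:142530216-142530335 (Gbp7, plus), chr11:58183723-58183842 (Gm12250, plus), chr11:58199456-58199555 (Igtp, plus) and chr11:48871421-48871520 (Irgm1, minus). In Gbp2 the response element begins 59 bases before the start. Igtp holds both motifs, the gamma-activated site from base 45 and the response element from base 34 before the start. In Irgm1, matches to the response element overlap, beginning 30 and 24 bases before the start. Of the 13 genes above 1, 7 had a RefSeq window of 250 bases before to 50 after the start, and 5 of these held the gamma-activated site (71.4%) and 6 the response element (85.7%). Of the 40 list members not above 1, 31 had a window, and 10 (32.3%) and 17 (54.8%) held the motifs. Of all 7430 genes with a window, 8.61% and 3.97% did. A match is a description of the letters and not of a bound site.

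Antigen presentation by MHC class I shares regulators with the interferon response. Of its 23 genes that passed, 0 were past 1 in either direction (0.629% of all genes were above 1 and 1.37% below -1). At these shares, 0 of 23 does not set the list apart. Above 0 were 19 (82.6%, against 42.8% of all genes), and the list median was 0.28 with IL-2, against 0.18 with IL-2-REH. The largest ratios were those of Psmb9, a subunit of the immunoproteasome (54.8 RPKM in unstimulated cells, 29.2 and 53.8 with IL-2 and then 26.4 and 37.7 with IL-2-REH, log2 ratio 0.86), and Tap2, a peptide transporter (58.1, 35.1 and 63.7 RPKM in unstimulated, 90 min and 4 hr IL-2 cells, 0.84). For both, the level at 4 hr was about that of unstimulated cells and the 90 min level lay below it. Between Treg replicates, 6 of 15 pairs had a larger ratio for Psmb9 and 3 for Tap2, and 1 of 15 departed from all genes by more than the list median did here (0.34). Cd274, which encodes PD-L1, had 10.7 and 25.97 RPKM with IL-2 (1.20) and 9.31 and 9.86 with IL-2-REH (0.08). Il12rb1, a chain of the IL-12 receptor, had 0.64 and 2.89 RPKM (1.25) against 4.95 in unstimulated cells. Wars, the tryptophan tRNA synthetase and a known target of interferon γ, had 14.8 and 34.2 RPKM (1.16). It was the 1 above 1 of 36 tRNA synthetase and amino acid response genes, with 0 below -1 (0.629% and 1.37% of all genes were). The list had a median of 0.22 with IL-2, against -0.19 with IL-2-REH.

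**Figure D2:**
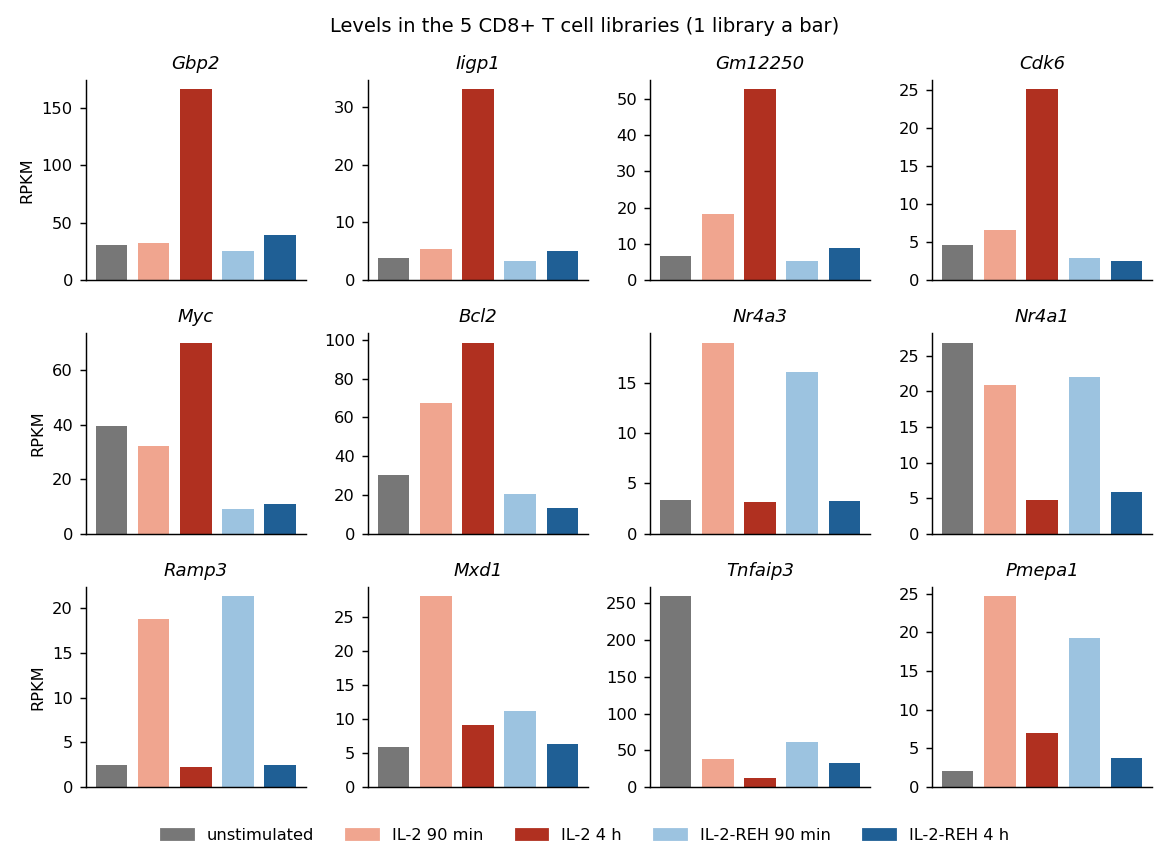
Bars give the RPKM of 12 genes in each of the 5 CD8+ libraries on axes that start at 0, 1 library per bar. Gbp2, Iigp1 and Cdk6 are high in the 4 hr IL-2 library alone, whereas Nr4a3 and Ramp3 are high at 90 min with both cytokines and low in the other 3 libraries. Pmepa1 is also highest at 90 min with both cytokines, but at 4 hr with IL-2 it is still above unstimulated cells (7.03 against 2.08 RPKM).

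Among the known targets of IL-2, Cdk6, Ecm1 and Myc were above 1. These were 3 of 33 target genes that passed, with 0 below -1 (0.629% of all genes were above 1 and 1.37% below -1). Above 0 were 19 (57.6%, against 42.8% of all genes), and the list median was 0.18 with IL-2, against -0.14 with IL-2-REH. Cdk6, a kinase that drives cells through G1, stood at 4.69 RPKM in unstimulated cells, 6.63 and 25.2 with IL-2 and 2.95 and 2.47 with IL-2-REH. The 4 hr IL-2 library was again the one high library, with a log2 ratio of 1.78 (3.79-fold, counting interval 3.55 to 4.05) and of -0.19 with IL-2-REH. Ecm1, a secreted matrix protein, had 2.57 RPKM in unstimulated cells, 5.45 and 19.7 with IL-2 and 1.75 and 3.15 with IL-2-REH (log2 ratios 1.68 and 0.59). Myc, the growth regulator, had 39.4 RPKM in unstimulated cells, 32.3 and 70.0 with IL-2 and 8.98 and 10.8 with IL-2-REH (1.09 and 0.24). Between Treg replicates, 0 of 15 pairs had a larger ratio for Cdk6 and Ecm1 and 5 for Myc. The cyclin Ccnd2 had 70.0 RPKM in unstimulated cells and 88.2 and 132 with IL-2 (0.57).

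Feedback inhibitors and ligands of the tumour necrosis factor family stayed within 1. Cish had 1.87 RPKM in unstimulated cells and 30.6 and 26.1 with IL-2 (-0.22), and Socs1 9.25, 36.2 and 42.3 (0.22). Lta, which encodes lymphotoxin α, had 3.21 RPKM in unstimulated cells and 33.4 and 43.4 with IL-2 (0.37), and Tnf had 2.03, 14.9 and 20.8 (0.46). All 4 were thus far above unstimulated cells by 90 min. Bcl2 stood at 30.4 RPKM in unstimulated cells, 67.5 and 98.5 with IL-2 and 20.4 and 13.4 with IL-2-REH (log2 ratios 0.54 and -0.57), and Gzmb, the cytotoxic protease granzyme B, at 8.19, 18.3 and 31.7 with IL-2 and 4.58 and 1.999 with IL-2-REH (0.76 and -0.90). These genes were higher at 4 hr with IL-2 and lower with IL-2-REH, by less than 1 in each case. Between Treg replicates, 5 of 15 pairs had a larger ratio for Bcl2, 9 for Gzmb, 7 for Tnf and 12 for Lta. Ifng, which encodes interferon γ, was highest in unstimulated cells. It had 7.89 RPKM there, 3.25 and 1.70 with IL-2 and 0.905 and 0.561 with IL-2-REH (-0.66 and -0.29). Of 28 cytotoxic and effector genes that passed, 0 were past 1 in either direction. Of all genes, 0.629% were above 1 and 1.37% below -1, so 0 of 28 does not set this list apart. Above 0 were 15 (53.6%, against 42.8% of all genes), and the list median was 0.05. Between Treg replicates, 13 of 15 pairs departed from all genes by more than the 0.11 seen here. The largest values in the list were those of Tnfsf10, the death ligand TRAIL (1.78 and 4.20 RPKM, 0.90), and of the chemokine Xcl1 (14.9 and 7.26 RPKM, -0.94). Among receptor and STAT5 pathway genes, Stat5a was below -1, with 14.5 RPKM in unstimulated cells, 25.1 and 11.3 with IL-2 and 30.6 and 10.7 with IL-2-REH (-1.08 and -1.43). Of the 17 pathway genes, 15 stayed within 1, Il2rb at 188 and 186 RPKM among them.

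Of the 137 genes lower at 4 hr with IL-2, 109 (79.6%, against 40.5% of all genes) were above unstimulated cells in the 90 min IL-2-REH library. The median level of the 137 genes was 6.83 RPKM in unstimulated cells, 18.3 at 90 min and 5.90 at 4 hr with IL-2, and 16.5 and 7.21 with IL-2-REH. The 2 IL-2 libraries chose these genes by their ratio. The IL-2-REH and unstimulated libraries did not enter that ratio, but they entered the filter on the mean of the 5 CD8+ libraries. A gene low in unstimulated cells could thus pass through its 90 min levels, so the share is a description and no independent check. Of 32 AP-1 and immediate early genes that passed, 0 were above 1 and 7 below -1 with IL-2 (0.629% and 1.37% of all genes were). Below 0 were 27 (84.4%, against 57.2% of all genes). The list median was -0.66 with IL-2, against -0.65 with IL-2-REH. Nr4a3, an orphan nuclear receptor, had 3.40 RPKM in unstimulated cells, 19.0 and 3.17 with IL-2 and 16.1 and 3.28 with IL-2-REH. The 90 min libraries of both cytokines were high and the 4 hr libraries were at the level of unstimulated cells, with log2 ratios of -2.26 and -1.99 (6.00-fold lower in RPKM with IL-2). Nr4a1 had 26.8 RPKM in unstimulated cells and 20.9 and 4.79 with IL-2 (-1.92), so that its 4 hr level lay below that of unstimulated cells. Nr4a2 (-1.45), Egr2 (-1.37), the phosphatase Dusp2 (-1.35), Fosl2 (-1.07) and Fosb (-1.03) were the others below -1. Fos was already far below unstimulated cells at 90 min, with 116 RPKM in unstimulated cells and 3.54 and 1.44 with IL-2 (-0.90), and Junb had 289, 56.3 and 30.8 (-0.85). In Tregs, Nr4a3 and Egr2 were below -1 in each of the 3 IL-2 pairs (-2.31 to -1.45 and -1.80 to -1.41). Replicate Treg libraries also differed in these genes, with a larger ratio than that of the CD8+ comparison in 4 of 15 pairs for Nr4a3 and in 10 for Egr2. For Nr4a2 this was so in 7 pairs and for Nr4a1 in 2. The list also differed between replicate Treg libraries, with medians that departed from all genes by up to 0.98, and 7 of 15 replicate pairs departed by more than the 0.60 of the CD8+ comparison.

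Cyclic AMP is known to limit T cell activation. Of 27 genes of G protein and cyclic AMP signalling that passed, 0 were above 1 and 6 below -1 (0.629% and 1.37% of all genes were). Above 0 were 7 (25.9%, against 42.8% of all genes). The median was -0.35 with IL-2, against -0.04 with IL-2-REH. Ramp3, a partner of calcitonin-family receptors, had the lowest ratio of all genes. It stood at 2.48 RPKM in unstimulated cells, 18.8 and 2.21 with IL-2 and 21.3 and 2.52 with IL-2-REH, from 1592 and 183 reads with IL-2. The levels at 4 hr lay close to that of unstimulated cells, and the log2 ratios were -2.62 and -2.66. Crem, a repressor of cyclic AMP target genes, had 2.12 RPKM in unstimulated cells, 25.9 and 10.5 with IL-2 and 18.5 and 5.31 with IL-2-REH (-1.23 and -1.62), so it was still above unstimulated cells at 4 hr. The regulators of G protein signalling Rgs1 (83.5 and 28.4 RPKM, -1.52), Rgs2 (-1.23) and Rgs10 (-1.03) were lower with IL-2 and reached -0.92, -0.69 and -0.38 with IL-2-REH. The phosphodiesterase Pde4d completed the 6 (-1.08). For Ramp3 and Crem, 2 of 15 Treg replicate pairs had larger ratios, both pairs with the unstimulated Treg replicate 1. For the list, 3 of 15 pairs departed from all genes by more than the 0.29 seen here.

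All 18 genes of the NF-kB list lay below 0 with IL-2 (57.2% of all genes did). With IL-2-REH, 15 did (83.3%, against 42.1% of all genes). Below -1 with IL-2 were 3 of the 18 (1.37% of all genes were). All but Nfkbie (-0.04) and Traf1 (-0.03) were also below the median of all genes. Tnfaip3, which encodes the inhibitor A20, had 260 RPKM in unstimulated cells, 38.4 and 12.1 with IL-2 and 60.8 and 32.97 with IL-2-REH (-1.59 and -0.86). It was highest in unstimulated cells, and with each cytokine the 4 hr library was lower than the 90 min library. Nfkbia, which encodes IκBα, had 79.7 RPKM in unstimulated cells, 115 and 48.4 with IL-2 and 119 and 75.1 with IL-2-REH (-1.24 and -0.66). Cd83, a surface protein, had 2.73 and 0.85 RPKM (-1.01). The subunits Nfkb1 (-0.52), Nfkb2 (-0.80), Rel (-0.76), Relb (-0.64) and Rela (-0.39) stayed within 1. The median was -0.55 with IL-2, and between Treg replicates 6 of 15 pairs departed from all genes by more than the 0.49 seen here. The stretches before the starts of Nfkbia and Tnfaip3 are shown with matches to a kB form (GGG, any 2 bases, TTTCC), on either strand, in capitals.
Nfkbia: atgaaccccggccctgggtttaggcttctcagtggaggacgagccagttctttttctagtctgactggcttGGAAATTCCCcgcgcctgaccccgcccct
Tnfaip3: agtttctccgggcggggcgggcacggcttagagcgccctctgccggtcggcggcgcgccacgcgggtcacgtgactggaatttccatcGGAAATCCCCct
They lie at chr12:55492648-55492747 and chr10:19015411-19015510 (GRCm38.p6, both on the minus strand). Of 87 genes lower at 4 hr with a window, 7 (8.05%) held this form, against 2.09% of all genes with a window, and the cyclic AMP response element TGACGTCA was in 1 (1.15%, against 4.00%). Both motifs were searched with the gamma-activated site and the response element, which 8.05% and 3.45% of the 87 windows held.

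**Figure D3:**
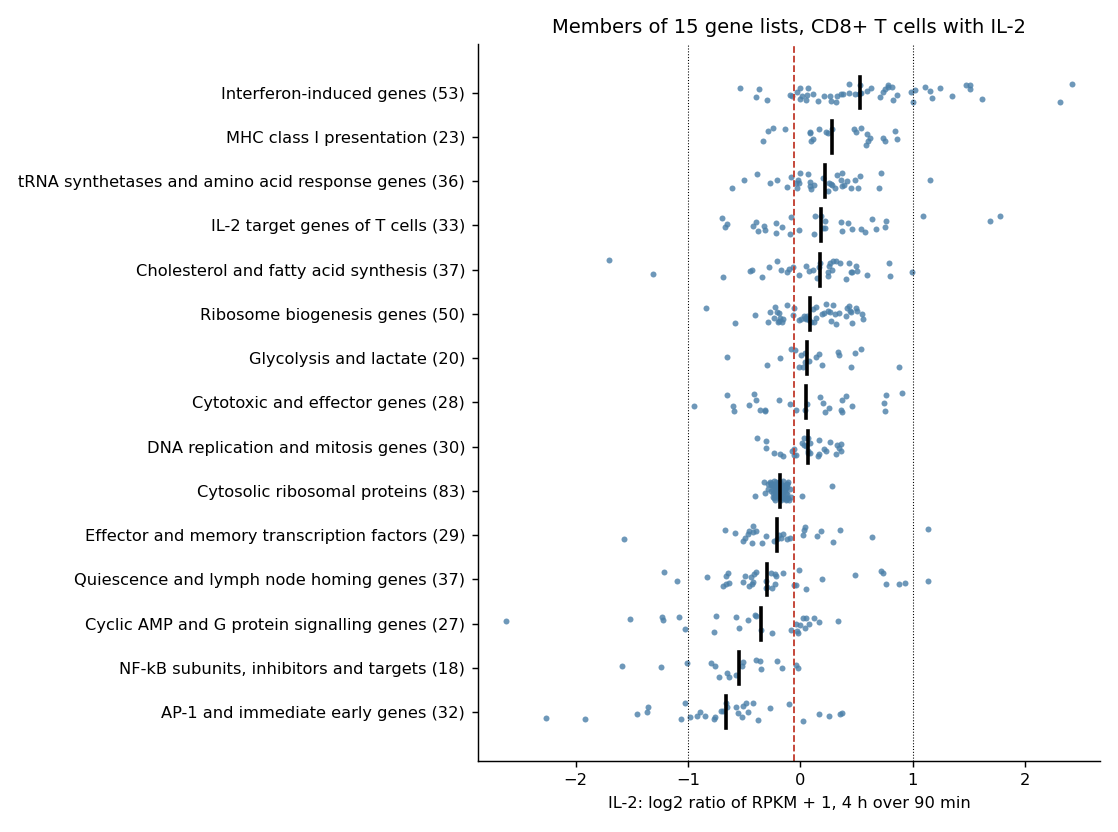
Each point is a gene of 1 of 15 lists (members that passed the filter in parentheses), placed by its log2 ratio of RPKM + 1 at 4 hr over 90 min with IL-2, with the list median as a black bar, the median of all genes (-0.06) as a dashed line and dotted lines at 1 and -1. Medians run from -0.66 for AP-1 and immediate early genes to 0.53 for interferon-induced genes, and the 83 cytosolic ribosomal protein genes lie close together around -0.19.

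Other regulators were among the genes lower at 4 hr. In the Myc network, Myc itself was above 1 while 3 of its antagonists that share the partner Max were below -1. Mxd1 had 5.90 RPKM in unstimulated cells, 28.0 and 9.12 with IL-2 and 11.2 and 6.35 with IL-2-REH (-1.52 and -0.73), Mxd4 had 29.5 and 10.6 with IL-2 (-1.40), and Mxi1 lay at the threshold (6.19 and 2.59, -1.0001). Odc1, the ornithine decarboxylase, had 96.8 and 27.9 RPKM with IL-2 (-1.76). Pmepa1, Skil, Ski, Tgif1 and Smurf2, each known to restrain TGF-β signalling, are given as single genes, since they were put together after their values were seen and stand for no list. Pmepa1 had 2.08 RPKM in unstimulated cells, 24.7 and 7.03 with IL-2 and 19.2 and 3.82 with IL-2-REH (-1.68 and -2.07). Skil stood at 11.2, 56.2 and 19.2 with IL-2 (-1.50), Ski at 20.1, 64.8 and 25.95 (-1.29), Tgif1 at 25.3, 81.1 and 19.7 (-1.99) and Smurf2 at 9.92, 28.6 and 10.3 (-1.39). Against unstimulated cells, the 4 hr IL-2 level had log2 ratios of 1.38 for Pmepa1, 0.72 for Skil, 0.36 for Ski, 0.05 for Smurf2 and -0.35 for Tgif1.

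Further genes below -1 belonged to other classes. Spsb1, an adaptor of ubiquitin ligases, had 1.22 RPKM in unstimulated cells, 12.2 and 1.60 with IL-2 and 9.96 and 1.25 with IL-2-REH, log2 ratios of -2.34 and -2.28. Its ratio was larger than in any of the 15 Treg replicate pairs (0.94 at most). Kdm2b, a histone demethylase, had 6.78 RPKM in unstimulated cells and 30.1 and 6.72 with IL-2 (-2.01), and Nrarp, a feedback inhibitor of Notch signalling, had 1.73, 11.3 and 2.85 (-1.67). Zeb1, a transcriptional repressor, had 10.7 RPKM in unstimulated cells and 59.3 and 19.3 with IL-2 (-1.57). It was the 1 of 29 effector and memory transcription factors below -1, and Bach2, a repressor of effector genes, the 1 above 1. The shares of all genes were 1.37% below -1 and 0.629% above 1. Among surface molecules, Tigit, an inhibitory receptor, had 4.01 RPKM in unstimulated cells and 10.9 and 2.73 with IL-2 (-1.67). The chemokine receptor Cxcr4 (63.6 and 26.8 RPKM, -1.21) and the retention factor Cd69 (57.0 and 26.1 RPKM, -1.10) were below their levels in unstimulated cells, 103 and 193 RPKM. A larger ratio was seen in 2 of 15 Treg replicate pairs for Cxcr4 and in 6 for Cd69. In the list of cholesterol and fatty acid synthesis genes, the desaturase Scd2 (19.5 and 5.27 RPKM, -1.71) and the cholesterol exporter Abca1 (5.28 and 1.53 RPKM, -1.31) were below -1.

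Most lists of housekeeping genes had no gene past 1. Over all genes, 0.629% were above 1 and 1.37% below -1, so lists of this size would hold few such genes at these shares. Of 83 cytosolic ribosomal protein genes, 81 (97.6%, against 57.2% of all genes) were below 0 with a median of -0.19, and the summed level of all 87 listed was 100084 RPKM at 90 min and 87707 at 4 hr. Of 50 ribosome biogenesis genes, 32 (64.0%, against 42.8% of all genes) were above 0 with IL-2 (median 0.09) and 5 (10%, against 57.9%) with IL-2-REH (median -0.33). Between Treg replicates, 9 of 15 pairs departed from all genes by more than the cytosolic ribosomal proteins did here and 10 by more than the ribosome biogenesis genes. Medians lay within 0.07 of 0 for 76 mitochondrial ribosomal proteins (0.02), 76 nuclear genes of oxidative phosphorylation (0.06), 46 proteasome subunits (-0.02), 20 glycolysis genes (0.06), 30 DNA replication and mitosis genes (0.06) and 35 chaperones (-0.00). In glycolysis, the enolase Eno1 had the highest ratio (121 RPKM in unstimulated cells, 78.3 and 145 with IL-2 and then 44.9 and 49.4 with IL-2-REH, 0.88). The 37 genes of quiescence and lymph node homing had a median of -0.29 with IL-2, against 0.08 with IL-2-REH, the 31 genes of the T cell receptor complex and costimulation -0.04 and 0.11, and the 13 BCL2 family genes -0.20 and -0.05.

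With IL-2-REH, the same comparison of 4 hr with 90 min gave 105 genes (1.05%) above 1 and 84 (0.838%) below -1. It shares no library with the IL-2 comparison. Of the 63 genes higher with IL-2, 20 (31.7%, and 19.0% of the 105) were above 1 with IL-2-REH and 55 (87.3%, against 57.9% of all genes) were above 0. Of the 137 genes lower with IL-2, 49 (35.8%, and 58.3% of the 84) were below -1 with IL-2-REH and 128 (93.4%, against 42.1%) were below 0. The correlation of both log2 ratios across the 10021 genes was r = 0.695, where genes are not independent replicates. All 13 interferon-induced genes belonged to the 43 genes above 1 with IL-2 and not with IL-2-REH, and 0 to the 20 above 1 with both. The 43 genes had a median level of 14.5 RPKM in unstimulated cells, 10.6 and 28.8 with IL-2 and 5.49 and 7.46 with IL-2-REH. That the 4 hr IL-2 library is above the 90 min library follows from how these genes were chosen. The 20 genes had medians of 8.07 RPKM in unstimulated cells, 3.31 and 8.22 with IL-2 and 3.18 and 9.42 with IL-2-REH. Here the choice of genes set each 4 hr library above its 90 min library. The unstimulated library entered through the filter on the mean and not through the ratios. Whether the ratios of a gene differ between the cytokines has no test with 1 library per group.

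Among the 20 genes were Adk, adenosine kinase (5.69 RPKM in unstimulated cells, 4.86 and 19.3 with IL-2 and then 4.99 and 31.8 with IL-2-REH, log2 ratios 1.79 and 2.45), and the urea transporter Slc14a1 (15.1, 1.66 and 6.61, 0.888 and 3.81 RPKM in the same order, 1.52 and 1.35). Adk was above unstimulated cells at 4 hr with both cytokines, and Slc14a1 below. For Adk, 4 of 15 Treg replicate pairs had a larger ratio. The septin Sept9 stood at 80.6 RPKM in unstimulated cells, 25.9 and 63.6 with IL-2 and 10.01 and 26.002 with IL-2-REH (1.27 and 1.29), and Bach2 at 13.6, 10.2 and 23.5, and 10.3 and 27.6 (1.13 and 1.34). Many of the 20 span long stretches of the genome. Their median span from start to end was 130 kb, and 11 (55.0%) were over 100 kb, Exoc6b (452 kb), Adk (396 kb), Bach2 (348 kb) and Mllt3 (263 kb) among them, against a median of 21.0 kb and 949 (9.53%) of the 9960 genes with a known span. The 43 genes above 1 with IL-2 alone had a median of 19.0 kb, with 3 (6.98%) over 100 kb. The 949 genes over 100 kb as a whole had a median log2 ratio of -0.04 with IL-2, against 0.14 with IL-2-REH. With IL-2, 14 of them (1.48%, against 0.629% of all genes) were above 1, and 30 (3.16%, against 1.37%) lay below -1. Long genes were thus also found among other groups past 1, with 21.9% over 100 kb for the 137 genes lower with IL-2, 24.5% for the 49 lower with both and 28.8% for the 104 genes with a known span that were higher with IL-2-REH.

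**Figure D4:**
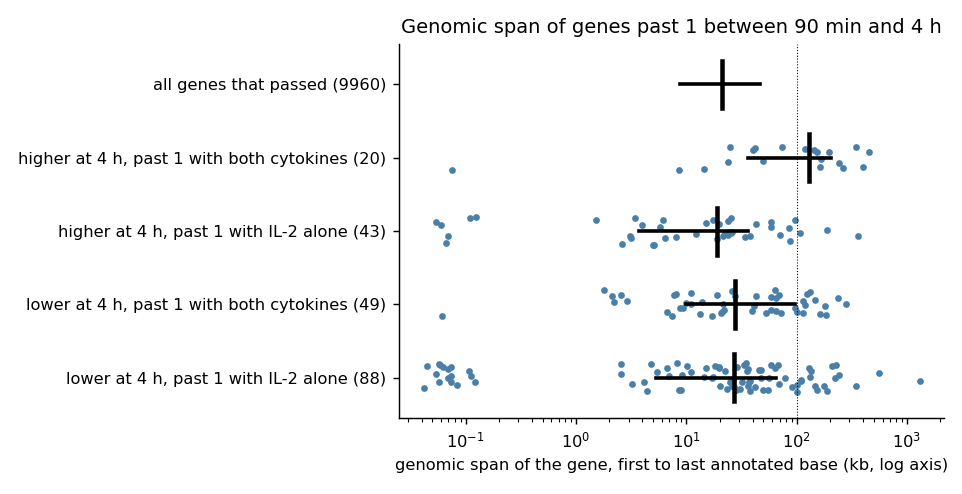
Genomic span in kb on a log axis for gene groups set by their log2 ratio at 4 hr over 90 min, with medians and quartiles. The 20 genes above 1 with both cytokines have a median of 130 kb, and the other groups lie nearer to the 21.0 kb of all genes.

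In Tregs given IL-2, the 3 same-numbered pairs of 4 hr and 90 min libraries were set beside the CD8+ ratios. Of the 137 genes lower in CD8+ cells, 101 (73.7%, against 21.7% of all genes) were below 0 in all 3 Treg pairs, and of the 63 higher genes 23 (36.5%, against 16.8%) were above 0 in all 3. Below -1 in all 3 pairs were 6 genes, Nr4a3, Egr2, Pmepa1, Cxcr4, Bzw2 and Mir7646, and above 1 in all 3 were 0. The numbers name replicates and the 4 hr replicate 3 was the shallowest library, with 33041984 mapped reads. Across genes, the CD8+ and Treg log2 ratios had r = 0.440, 0.467 and 0.369. Cdk6 was above 0 in all 3 pairs (0.19 to 1.17), as were Ecm1 (0.85 to 1.58) and Gzmb (0.13 to 1.31), whereas Gbp2 (-0.36 to 1.77) and Ramp3 (-1.39 to 0.31) took both signs.

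**Figure D5:**
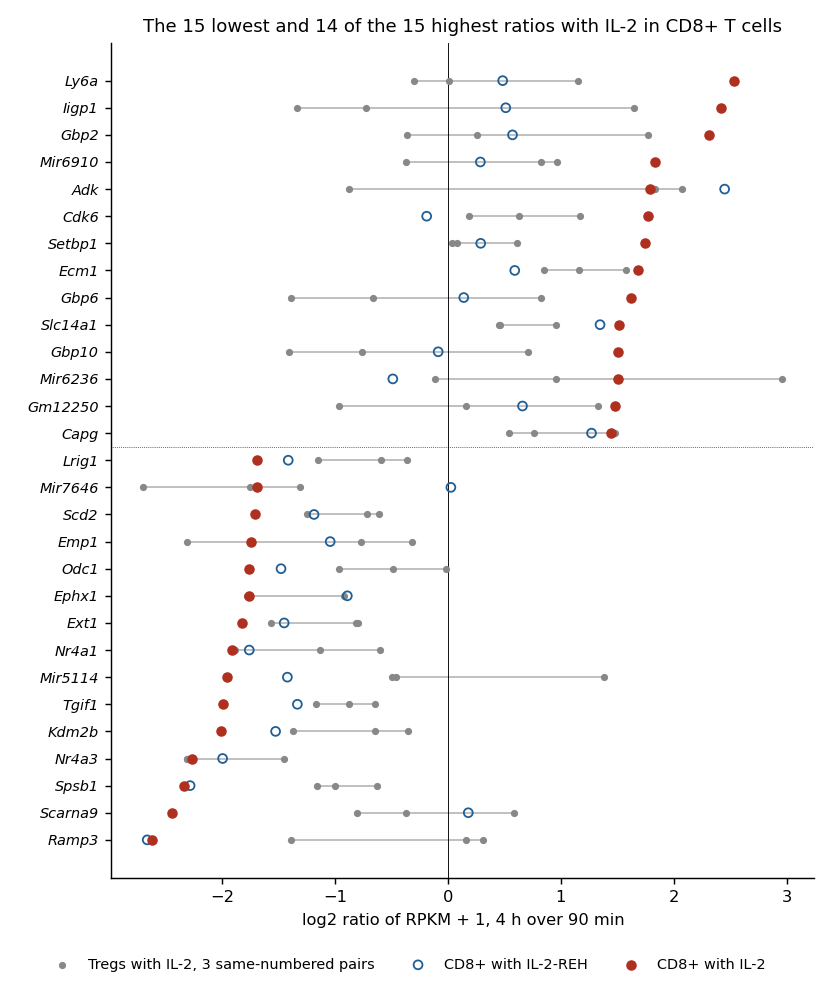
The 15 lowest genes and 14 of the 15 highest genes of the CD8+ IL-2 comparison, with the log2 ratio of RPKM + 1 (4 hr over 90 min) for CD8+ cells with IL-2 in red, with IL-2-REH as open blue points and for the 3 Treg IL-2 pairs in grey. Blue points of Ramp3, Spsb1 and Nr4a3 sit beside the red ones (-2.66, -2.28 and -1.99), whereas those of Ly6a, Iigp1 and Gbp2 lie at 0.49, 0.51 and 0.57.

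Some of the ratios come from transcripts that the counting of reads can blur, and these were chosen after their values were seen. Lars2, a mitochondrial tRNA synthetase, had 1725 RPKM in unstimulated cells, 1178 and 3203 with IL-2 and 1247 and 1058 with IL-2-REH (1.44 and -0.24), and took 0.457% of mapped reads at 90 min and 1.24% at 4 hr. Mir6236 had 759 and 2154 RPKM with IL-2 (1.50) and 906 and 646 with IL-2-REH (-0.49). Symbols of microRNAs and small nucleolar or Cajal body RNAs made up 7 of the 63 higher and 17 of the 137 lower genes. Their share of all genes is not given here, and a library of messenger RNA measures these poorly. Scarna9 had 13 reads at 90 min and 0 at 4 hr. Reads at 4 hr numbered under 100 for 6 of the higher genes and 24 of the lower ones, and for 372 of all 10021 genes. At 90 min these counts were 8, 17 and 377. At the threshold of 1, Drc1 (1.002) and Gbp5 (1.003) lay just above and Depdc1b (0.999) just under, and at -1, Mxi1 (-1.0001) and Ssh2 (-1.002) lay just below and Fbxo32 (-0.994) and Syne1 (-0.992) just over.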

How the data were processed

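RNA was extracted with a Zymo RNA miniprep kit, libraries were made with the Kapa mRNA HyperPrep kit and sequenced on a HiSeq3000 as 50 bp single-end reads. Per the labels and the study's methods, the authors aligned reads to mm10 (the processing notes name TopHat2 2.1.1, Bowtie2 2.2.6, SAMtools 0.1.8, bedtools 2.25.0 and edgeR) and deposited, for each library, the count of uniquely mapped reads on the exons of each RefSeq transcript. The authors also deposited the RPKM of each transcript, which was used here. Whether counting used strand is not given in the sources used here, so overlapping genes, and near-identical copies such as the Gbp genes, are uncertain where reads could be shared.

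Of 31682 transcripts, the one with most reads over the 20 libraries was kept for each of 23992 symbols. Genes with a mean of at least 1 RPKM over the 5 CD8+ libraries were kept, and the log2 ratio of RPKM + 1 was taken with a threshold of 1 in either direction. With 1 library per group no test was made. Counting intervals of a ratio (exact Clopper-Pearson) are at the 95% level. Named genes were the 15 highest and 15 lowest ratios, up to 4 members of each list past the threshold in each direction (the 2 largest where none was past it, and the highest member of each list of other-cell markers), and Cish, Socs1, Cdk6, Tnf, Lta, Bcl2, Myc, Ifng and Gzmb. Any other gene was chosen after its values were seen. The comparison and the 32 gene lists were chosen with earlier results of these data known. Promoter windows, 250 bases before to 50 after the start, and positions come from RefSeq (GRCm38.p6). Python 3.11.15, numpy 2.4.6, pandas 2.3.3, scipy 1.17.1, matplotlib 3.10.9, R 4.3.3 and edgeR 4.0.16 (TMM library sizes alone) were used. Alternatives were another pseudocount, filter, scaling, transcript choice and threshold. Some genes are not reported here.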

Additional observations from a re-analysis of the deposited data

Results flagged for a closer look

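In 5 genes the CD8+ comparison went one way and all 3 Treg pairs with IL-2 the opposite way, and the difference was not tested. They were 3 of the 63 higher genes (4.76%, where 21.7% of all genes were below 0 in all 3 Treg pairs) and 2 of the 137 lower genes (1.46%, where 16.8% of all genes were above 0 in all 3). Myc had a log2 ratio of 1.09 in CD8+ cells and of -0.69 to -0.17 in the Treg pairs, and 5 of 15 pairs of Treg replicates had a larger ratio for Myc (1.46 at most). Map3k8, a kinase of the NF-kB and ERK pathways, had 1.06 against -0.70 to -0.18. Insl6, an insulin-like peptide, had 1.18 against -1.36 to -0.46. Aqp3, a water and glycerol channel, had -1.10 against 0.18 to 0.40, and Mir6955 had -1.03 against 0.22 to 0.75.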

How the results depend on the processing

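The counts of 63 higher and 137 lower genes were 45 and 95 with a mean of at least 5 RPKM, 67 and 139 with no filter, 78 and 113 after centring on the medians, 78 and 116 with TMM library sizes, and 63 and 137 with the longest transcript. They moved by more than 1.5 times with a pseudocount of 0.1 RPKM, to 146 and 223, and with a threshold of 2, to 3 and 5. Without symbols of small RNAs, an alternative chosen after seeing the data, they were 56 and 120. Under 6 settings, 2 of 67 named genes past 1 lost the threshold while they kept a value. They were Cd83 (-0.98 with TMM library sizes and -0.96 after centring) and Mxi1 (-0.95 and -0.94). Named genes with a mean under 5 RPKM, Setbp1, Il12rb1, Egr2 and Nrarp among them, dropped out under that filter and were not counted as lost. No count and no named gene past 1 turned direction under the alternatives run. Medians of 4 lists changed sign with a mean of at least 5 RPKM, those of cholesterol and fatty acid synthesis (0.17 to -0.02), the BCL2 family (-0.20 to 0.27), DNA replication and mitosis genes (0.06 to -0.01) and chaperones (-0.0033 to 0.0002), and medians of lists near 0 also changed sign with the scaling. Scaling moved the median of all genes from -0.06 to 0.00388 with TMM library sizes. No library could be left out, since each group is 1 library. No paired analysis was possible because the results come from no test. Genes with few reads are limited by depth.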
